A study of Mus musculus with 11 samples.

Results

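The collagens and laminins are the 2 large families of matrix proteins that give the walls of brain vessels, the meninges and the choroid plexus their structure. Members were taken by symbol: every gene of the deposited table named as a collagen chain (Col, a number, a, a number) or as a laminin alpha, beta or gamma chain (Lama, Lamb or Lamc and a number). The rule found 55 genes, 44 collagens and 11 laminins, among 25938 symbols. All 55 had at least 200 UMIs (unique molecular identifiers, 1 per captured RNA molecule) over the series, from 263 to 74127 UMIs.

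Collagen chains wind into triple helices in the secretory pathway and leave the cell as fibrils, networks or membrane-bound molecules. Type IV collagen forms the network of basement membranes, the thin sheets under endothelium and epithelium and around pericytes, and its chains assemble in fixed combinations. Laminins are cross-shaped trimers of an alpha, a beta and a gamma chain that bind receptors on cells and anchor those cells to the same sheets. In the brain, basement membranes lie around vessels, under the meninges and below the astrocyte endfeet, while fibrillar collagens are known mainly from the meninges.

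The series measured RNA of single nuclei from frozen mouse brain, in 11 libraries. All mice were homozygous for a human transferrin receptor knock-in (hTfR KI HOM); the labels give the strain as Human TfR knock-in and the deposited table of nuclei as C57BL/6J. Each group received 4 weekly intravenous doses, with tissue taken 72 h after the last. The groups were OTV:Malat1 at 60 mg per kg (n = 3), a Malat1 antisense oligonucleotide on a carrier that binds the transferrin receptor; nonTV:Malat1 at 60 mg per kg (n = 3, titled RSV-ASO), the oligonucleotide on an antibody without that binding; Malat1 ASO at 2.5 mg per kg (n = 2), the free oligonucleotide; and ATV:BACE1 at 57 mg per kg (n = 3), which carries no oligonucleotide and is named for BACE1 in its place, used here as the control. Comparisons with it therefore differ in that part as well as in the oligonucleotide. ATV:BACE1 is a receptor-binding control, so nonTV:Malat1 also differs from it in that binding. Malat1 ASO also differs from it in having no carrier and in its dose. Replicate 1 of each group was female and 2.33 months old, replicate 4 male and 2.57 months, and replicate 5 male and 2.33 months. Malat1 ASO had no replicate 4. The deposited batch follows the replicate number. Replicates 1 and 5 share an age and replicates 4 and 5 a sex, but each number is its own batch, so neither sex nor age can be told apart from batch. The labels give the region as posterior, while the deposited table of nuclei says cortex. They number the libraries within a group without naming animals, so the p-values measure the spread between these libraries.

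The table held 110304 nuclei with a median of 2859 UMIs, and the libraries held 33235994 to 43972886 UMIs from 7546 to 13840 nuclei. Malat1, the targeted RNA, took 4.00 to 5.03% of UMIs in the OTV:Malat1 libraries, against 7.45 to 8.39% in all the others. In all, 3011 nuclei (2.73%) carried a barcode also found in another library, with 12 to 57 shared barcodes per pair of libraries. The authors' class names were used, and levels are CPM, counts scaled to 1000000 UMIs of a class, as mean ± SD over libraries with at least 20 nuclei of it (n = 11, or n = 8 for vascular smooth muscle). RNA from outside the nuclei was not estimated, so low levels in a class are not read as expression there. Perivascular macrophages reached that size in 1 library and are not described. Each class was set against fixed marker lists. Neuron, oligodendrocyte, astrocyte, microglia, endothelial and leptomeningeal markers were highest in the nuclei of that name. In the nuclei named pericytes, 4 of 7 pericyte markers were lower than in those named vascular smooth muscle (Pdgfrb at 564 CPM against 998 CPM), and 6 endothelial markers summed to 10958 CPM against 13482 CPM in endothelium. The class named Glia held choroid plexus markers (5 of 5, 7177 CPM summed) and ependymal markers (4 of 4, 817 CPM). In the 330 nuclei named vascular smooth muscle, library sums of the smooth muscle list ran from 161 to 4509 CPM. Pooled, that list summed to 1344 CPM there and the pericyte list to 7165 CPM (Acta2 at 462 CPM and Atp13a5 at 2878 CPM), so smooth muscle below stands for the deposited name, and RNA of the 2 cell types cannot be told apart in its levels. A leptomeningeal sum stood apart from the others: OTV:Malat1 replicate 5 had 114 such nuclei and no UMI of Slc47a1, a marker present there in the other 10 libraries, and the leptomeningeal values in which it stood far from the others are also given without it.

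The 6 type IV genes lie in 3 head-to-head pairs, and the levels below are given by pair, so a start region of each is shown first. Whether the levels depend on these regions was not tested. Each window runs from 250 bases before to 50 after the gene's start, from RefSeq (GRCm38.p6), printed 5′ to 3′ on the gene's own strand. Capitals mark CCAAT or its reverse complement ATTGG, and GGGCGG or its reverse complement CCGCCC. These motifs, and TATAAA, were searched on both strands, and no matches overlapped.
Col4a1: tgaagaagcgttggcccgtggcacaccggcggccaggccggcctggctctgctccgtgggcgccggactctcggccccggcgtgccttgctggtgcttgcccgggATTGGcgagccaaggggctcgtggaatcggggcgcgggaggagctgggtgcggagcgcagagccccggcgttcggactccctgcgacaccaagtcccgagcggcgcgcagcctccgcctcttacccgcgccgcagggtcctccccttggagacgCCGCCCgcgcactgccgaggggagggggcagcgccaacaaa
Col4a4: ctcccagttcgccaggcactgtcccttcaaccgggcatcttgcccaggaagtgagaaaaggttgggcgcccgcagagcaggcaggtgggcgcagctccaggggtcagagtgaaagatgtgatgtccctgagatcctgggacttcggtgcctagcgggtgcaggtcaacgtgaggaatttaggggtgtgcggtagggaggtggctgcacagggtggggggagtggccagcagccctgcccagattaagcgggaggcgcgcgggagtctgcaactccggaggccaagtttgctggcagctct
Col4a5: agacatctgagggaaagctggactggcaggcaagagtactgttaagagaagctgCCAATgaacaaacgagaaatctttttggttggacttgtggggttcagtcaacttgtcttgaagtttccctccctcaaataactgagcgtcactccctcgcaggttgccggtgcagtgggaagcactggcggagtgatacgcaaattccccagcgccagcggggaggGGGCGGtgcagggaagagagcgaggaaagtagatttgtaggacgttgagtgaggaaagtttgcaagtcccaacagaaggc
Col4a6: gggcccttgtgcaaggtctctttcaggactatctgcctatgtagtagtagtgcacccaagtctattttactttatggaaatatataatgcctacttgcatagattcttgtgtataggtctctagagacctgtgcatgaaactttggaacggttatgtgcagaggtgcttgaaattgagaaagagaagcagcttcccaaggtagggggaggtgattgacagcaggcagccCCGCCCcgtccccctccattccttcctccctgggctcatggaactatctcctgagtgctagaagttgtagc
The Col4a1 window (chr8:11312777-11313076, minus strand) covers the start of Col4a2, since the starts lie 21 bases apart (GENCODE annotation of GRCm38). It is 74.0% G and C and holds 1 CCAAT and 1 GGGCGG. The Col4a4 window (chr1:82586800-82587099, minus strand) covers the start of Col4a3, 72 bases away, is 63.3% G and C and holds neither motif. Col4a5 (chrX:141475169-141475468, plus strand) and Col4a6 (chrX:141474027-141474326, minus strand) start 1309 bases apart in the GENCODE annotation. Its Col4a5 start, at 141475385, differs from the RefSeq start used for the Col4a5 window. The Col4a5 window is 52.7% G and C with 1 CCAAT and 1 GGGCGG, and that of Col4a6 is 48.3% with 1 GGGCGG. No window of the 4 held TATAAA. Among 32851 such windows, 37.4% held CCAAT, 35.7% GGGCGG and 13.6% TATAAA on either strand, so each match is a common one. Windows were found for 40 of the 55 members, and Col4a3 is named only.

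The pairs differed from one another in the classes where their RNA was found, while the 2 genes of a pair had their highest level in the same class. Classes were named from the expression of these same nuclei, so levels by class are a description with no test, and each gene is compared across classes and not with other genes. Col4a1 and Col4a2, whose chains form the network found in most basement membranes, were highest in the vascular classes. Col4a1 was at 337 ± 48.5 CPM in pericytes (lowest 249, median 342, highest 419), 265 ± 64.3 CPM in vascular endothelium and 236 ± 63.7 CPM in vascular smooth muscle. These 3 classes overlapped over the libraries. The leptomeningeal level was 80.0 ± 19.6 CPM, that of neurons 30.4 ± 3.3 CPM and that of oligodendrocytes 5.6 ± 2.3 CPM. Col4a2 was at 283 ± 54.7 CPM in pericytes (182 to 397), 255 ± 48.7 CPM in endothelium and 178 ± 93.3 CPM in smooth muscle, with 49.6 CPM in neurons and 10.4 CPM in oligodendrocytes. These genes overlap at their starts, and whether the counting used strand is not given.

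Col4a3 and Col4a4, whose chains with that of Col4a5 form the network known from kidney and lung, were highest in the nuclei named Glia. Col4a3 was at 141 ± 38.8 CPM there (lowest 78.7, median 133, highest 202), 95.4 ± 28.7 CPM in smooth muscle and 47.7 ± 20.3 CPM in pericytes. In neurons it was at 1.2 CPM, and microglia had no UMI. Col4a4 was at 126 ± 30.9 CPM in Glia (83.6 to 177), 36.5 ± 46.7 CPM in smooth muscle and 25.2 CPM in pericytes. Col4a5 and Col4a6 were highest in leptomeningeal nuclei, the cells of the membranes over the brain. Col4a5 was at 294 ± 52.8 CPM there (lowest 222, median 274, highest 367), and the lowest leptomeningeal library lay above the highest of the next class, Glia, at 105 ± 18.7 CPM (73.3 to 136). Astrocytes had 51.1 ± 8.2 CPM of Col4a5. Col4a6 was at 260.4 ± 66.3 CPM in leptomeningeal nuclei (193 to 390), 53.5 ± 37.1 CPM in smooth muscle and 20.1 ± 9.59 CPM in Glia, again without overlap.

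**Figure D1:**
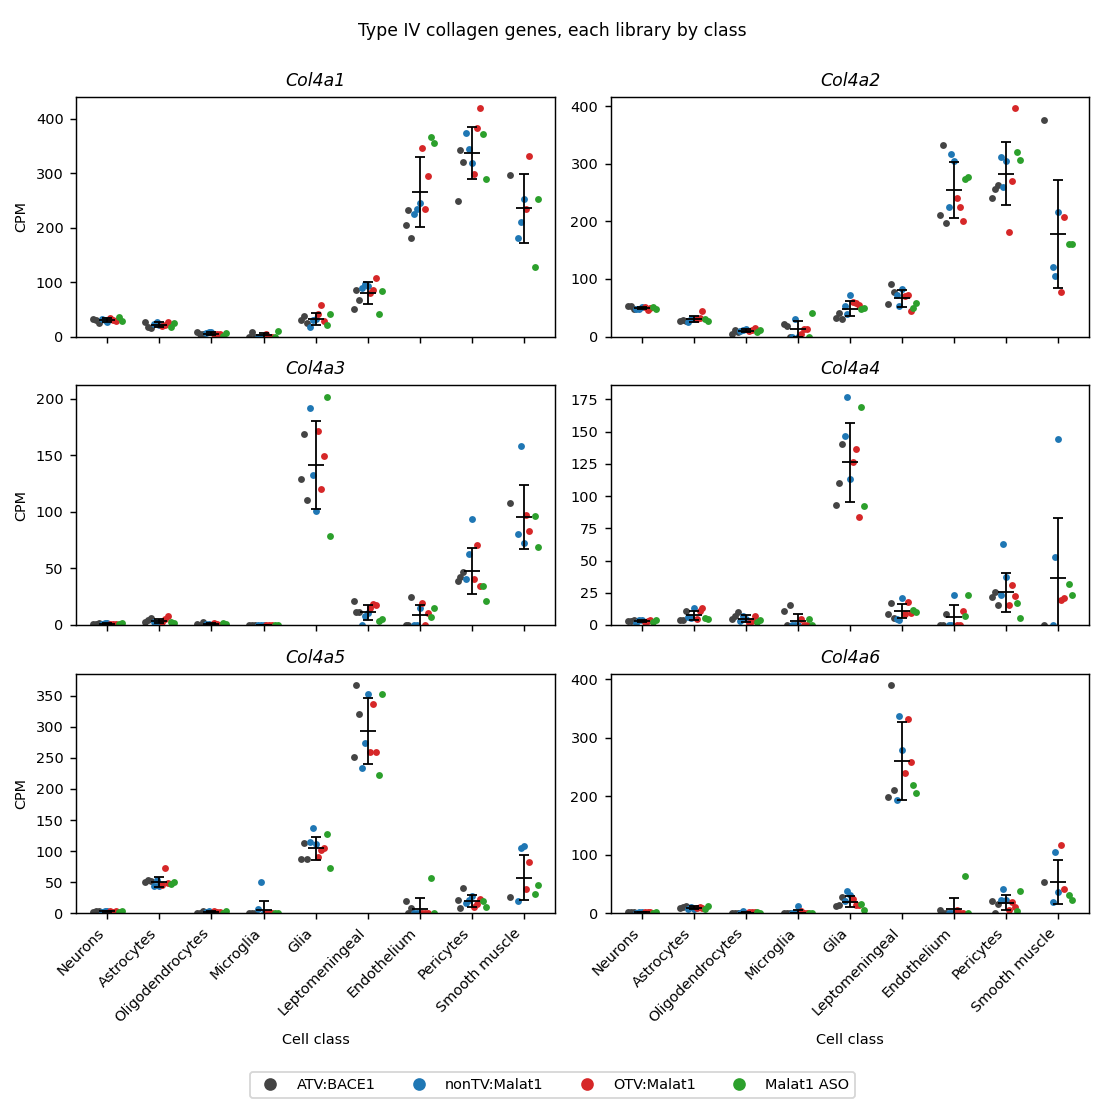
Level of the 6 type IV collagen genes by class, in CPM, with a point for each library coloured by dosing group and bars for the mean ± SD. Col4a1 and Col4a2 are highest in the vascular classes, Col4a3 and Col4a4 in Glia (141 and 126 CPM on average), and Col4a5 and Col4a6 in leptomeningeal nuclei (294 and 260.4 CPM).

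The vascular values depend on what the nuclei named pericytes hold. Of these 930 nuclei, 808 (86.9%) had UMIs of both pericyte genes (Pdgfrb, Kcnj8, Abcc9, Atp13a5) and endothelial genes, and their median depth was 2158 UMIs. Another 99 (10.6%, median 670 UMIs) had pericyte genes only. Pooled over libraries, with 95% exact Poisson intervals that cover counting error only, Col4a1 was at 127 CPM (58.1 to 241) in the nuclei with pericyte genes only and 344 CPM (320 to 370) in those with both. Lama2 went the other way, at 1299 CPM (1047 to 1593) and 370 CPM (344 to 396). Lamc3 was at 240 CPM (140 to 384) and 91.8 CPM. The sets differ in depth, and the part of depth or of doublets in these values was not tested.

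Among the laminin alpha chains, which carry the main receptor-binding domains, each of the 5 had its own pattern. Lama1, the alpha chain of the early embryonic basement membrane, was at 514 ± 107 CPM in leptomeningeal nuclei (lowest 320.2, median 487, highest 692). Smooth muscle had 49.5 ± 37.0 CPM, neurons 5.0 CPM and oligodendrocytes 1.4 CPM, and the leptomeningeal libraries lay above every library of the other classes. Lama2, the alpha chain known from muscle and from the astrocyte side of vessels, was spread over several classes. It was at 937 ± 230 CPM in smooth muscle, 764 ± 107 CPM in leptomeningeal nuclei, 639 ± 91.1 CPM in astrocytes (502 to 769), 403 ± 55.6 CPM in pericytes and 259.8 ± 34.1 CPM in oligodendrocytes. Endothelium had 48.4 ± 23.6 CPM of it and neurons 31.9 ± 3.8 CPM.

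Lama3, an alpha chain of epithelial laminins, was highest in astrocytes at 83.5 ± 17.7 CPM (58.9 to 119), with 47.4 ± 17.8 CPM in Glia and 9.0 CPM in neurons. Lama4 and Lama5 are the alpha chains of the endothelial basement membrane. Lama4 was at 262 ± 144 CPM in smooth muscle, 186 ± 39.3 CPM in leptomeningeal nuclei, 167 ± 47.4 CPM in pericytes and 128 ± 35.3 CPM in endothelium, which overlapped, against 13.7 CPM in neurons. Lama5 was at 67.6 ± 26.9 CPM in endothelium, 59.3 ± 21.2 CPM in pericytes and 54.6 ± 12.5 CPM in Glia, also overlapping, against 2.0 CPM in neurons. Without nuclei under 1000 UMIs, Lama4 was highest in leptomeningeal nuclei and Lama5 in pericytes. Glia mixes choroid plexus and ependymal nuclei, which are divided below. Pooled, Lama3 was at 13.2 CPM in the choroid set and 95.1 CPM in the ependymal set, and Lama5 at 86.5 and 16.3 CPM.

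Beta and gamma chains complete the trimer. Lamb1, a beta chain of most tissues, was highest in Glia at 71.5 ± 23.1 CPM, with 35.9 CPM in leptomeningeal nuclei. Lamb2, the beta chain known from vessels and synapses, was at 121 ± 34.5 CPM in pericytes, 91.8 ± 21.3 CPM in endothelium and 1.2 CPM in neurons. Lamb3, a partner of Lama3 in epithelium, had at most 4.97 ± 4.06 CPM (leptomeningeal nuclei, 14 UMIs). Lamc1, the gamma chain of most laminins, was at 550.1 ± 218 CPM in smooth muscle, 286 ± 22.8 CPM in pericytes, 253 ± 58.3 CPM in leptomeningeal nuclei, 56.2 CPM in neurons and, at the lowest, 38.2 CPM in microglia. Lamc3 was at 214 ± 50.1 CPM in smooth muscle, 127 ± 23.7 CPM in leptomeningeal nuclei and 97.97 ± 19.0 CPM in pericytes, while neurons had 1.5 CPM and microglia no UMI.

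**Figure D2:**
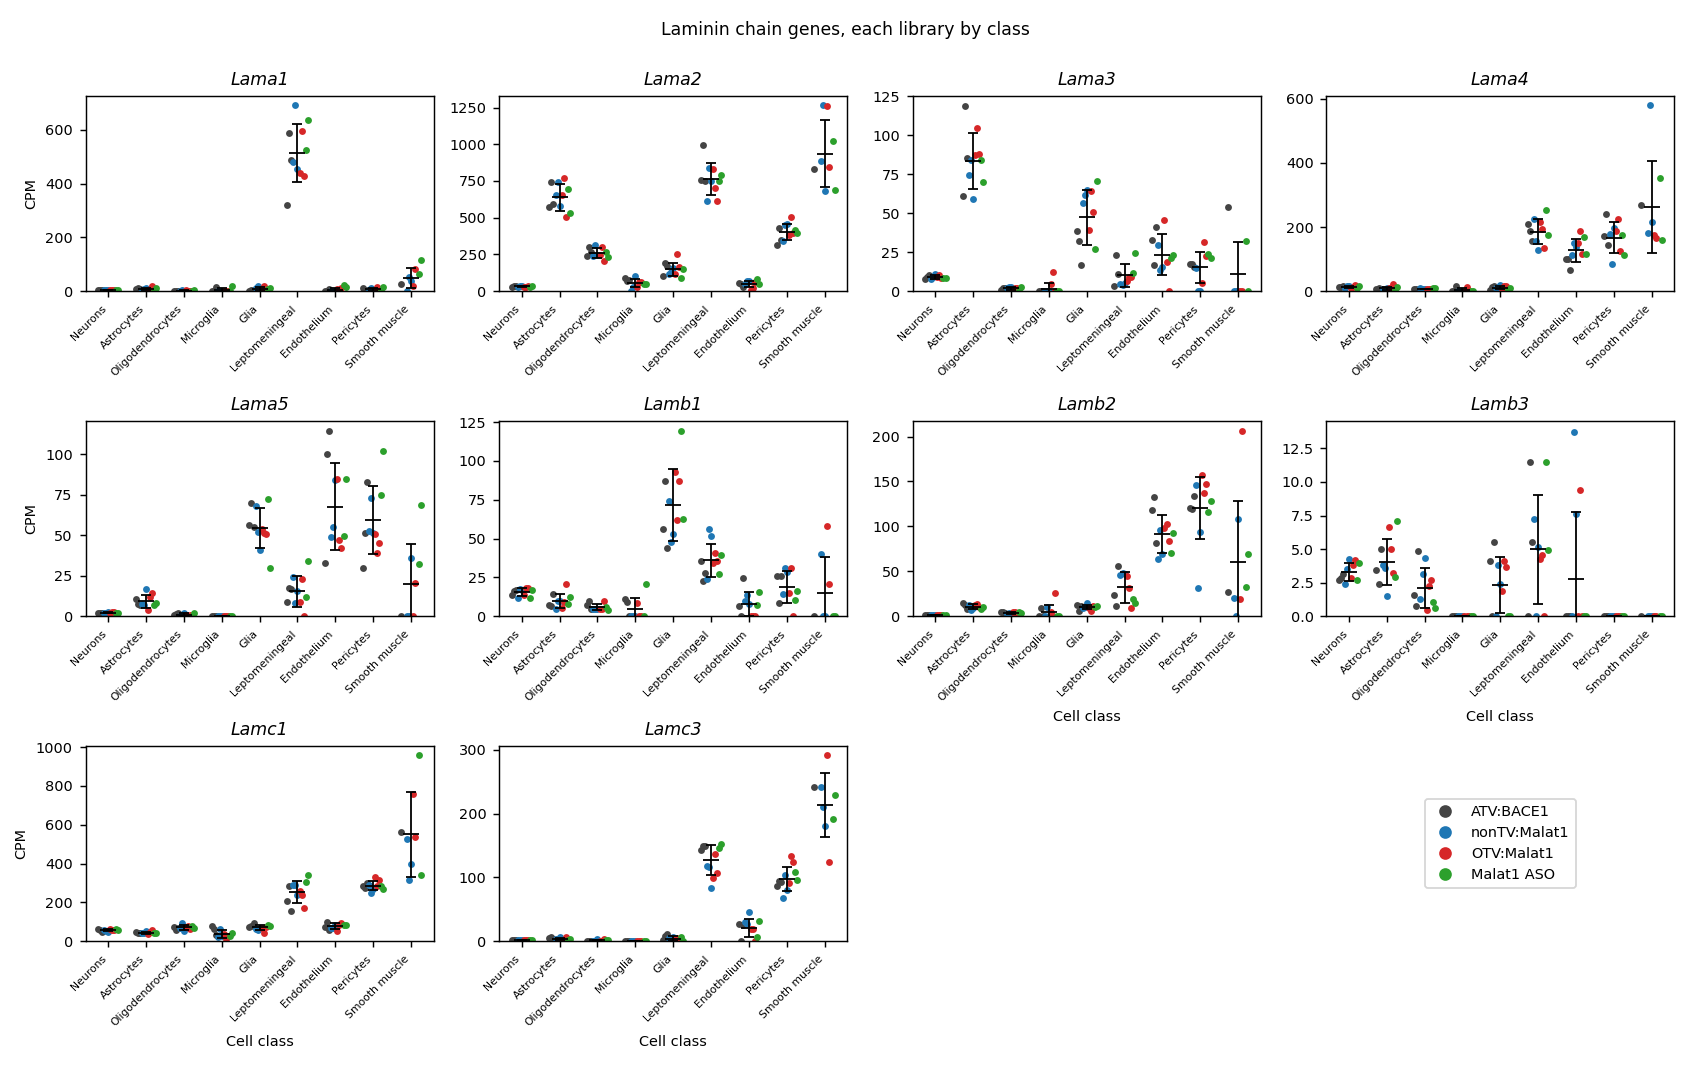
Level of 10 laminin chains by class, in CPM, with a point for each library coloured by dosing group and bars for the mean ± SD. Lama1 stands out in leptomeningeal nuclei (320.2 to 692 CPM), Lama2 is spread over smooth muscle, leptomeningeal nuclei and astrocytes, and Lama3 is highest in astrocytes (58.9 to 119 CPM).

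Leptomeningeal nuclei had the highest mean of 20 members, 18 collagens and 2 laminins, though they were 1.69% of the nuclei. Glia led for 11 members, smooth muscle for 8, neurons and microglia for 4 each, pericytes for 3, astrocytes and endothelium for 2 each, and oligodendrocytes for 1. For 13 members the lowest library of the leading class lay above the highest library of every other class. These were Col3a1, Col5a1, Col4a5, Col4a6, Col22a1, Col13a1, Col23a1, Col26a1 and Lama1 in leptomeningeal nuclei, Col9a3, Col8a1 and Col8a2 in Glia, and Col9a1 in oligodendrocytes. The shares of all genes that each class led, or led without overlap, are not given here. The counts of leading classes, here and by family below, are therefore not read as particular to collagens and laminins. For 9 members the leading class rested on under 20 UMIs, and its name carries no weight: Col2a1, Col6a6, Col7a1, Col10a1, Col14a1, Col17a1, Col18a1, Col28a1 and Lamb3. Because neurons were 69.1% of nuclei and the deepest, with a median of 3926 UMIs, they still supplied a median of 77.9% of a member's UMIs, and over 50% for 41 members. The share of all UMIs that came from neurons is not given here, so these values are not read as a trait of the members.

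**Figure D3:**
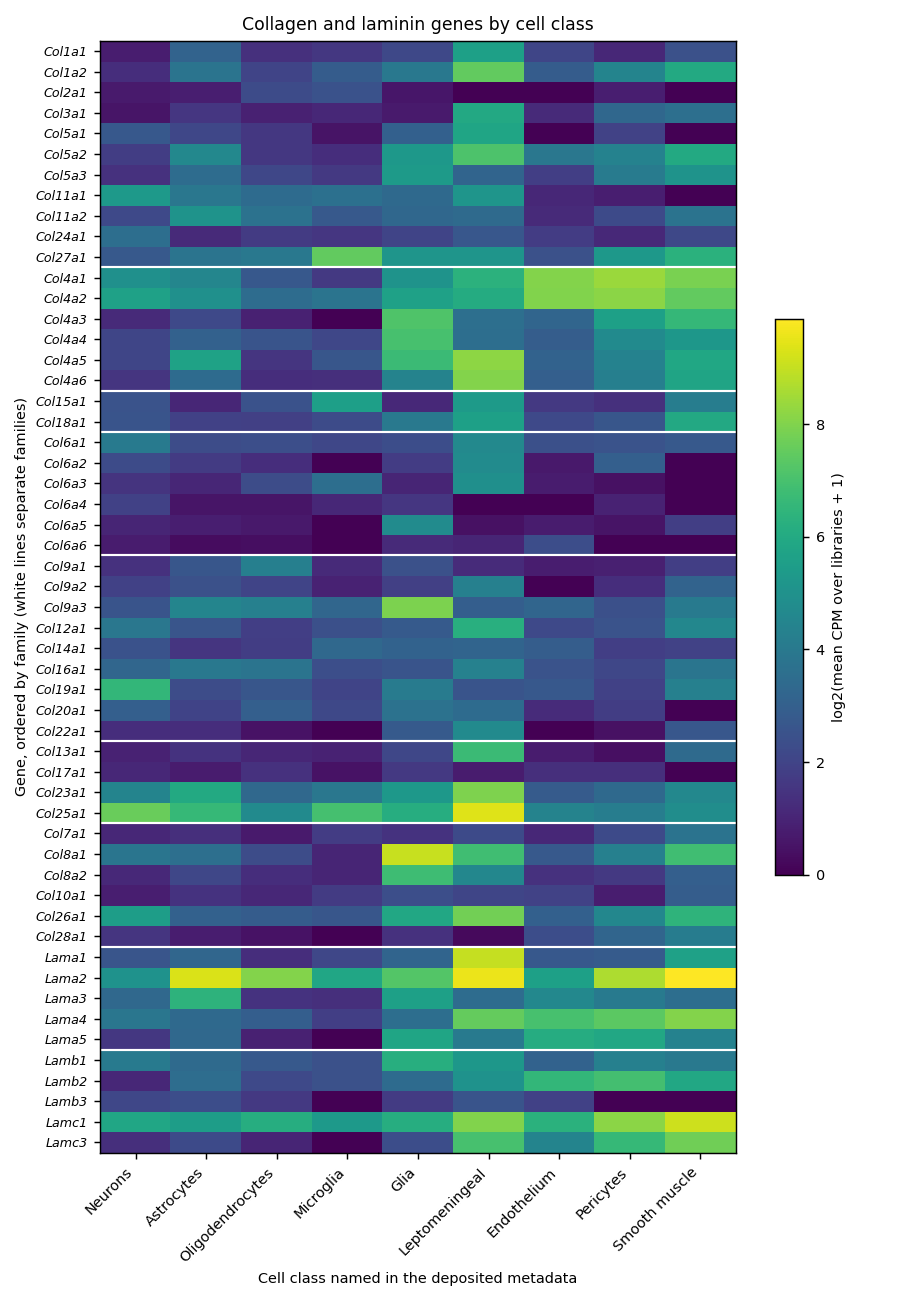
Mean level of 54 members in each class, coloured on a log scale of CPM and ordered by family. The leptomeningeal column leads for 20 members.

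The fibrillar collagens, which build tensile fibrils, were led by leptomeningeal nuclei for 5 of 11 genes. Col1a1 and Col1a2, the chains of type I collagen, were at 48.4 ± 19.5 CPM and 180 ± 47.3 CPM there, with 7.73 CPM in astrocytes and 63.3 CPM in smooth muscle as the next classes. Col1a1 was at 8.93 CPM in OTV:Malat1 replicate 5 and 52.3 ± 15.2 CPM in the other 10 libraries (27.9 to 86.2). Col3a1, known from soft and vascular connective tissue, was at 60.8 ± 19.6 CPM (lowest 38.7, median 59.0, highest 113) against 11.1 CPM in smooth muscle. Col5a1 and Col5a2, which help type I fibrils to start, were at 54.9 ± 16.0 CPM and 137 ± 32.7 CPM. Col5a2 was at 44.6 CPM in OTV:Malat1 replicate 5 and 147 ± 11.7 CPM in the other 10 libraries (132 to 168). Col5a3 was highest in Glia, at 40.9 CPM (26.1 to 61.9), and overlapped smooth muscle.

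The other fibrillar chains had their highest level in other classes. Col11a1, a minor chain of cartilage fibrils, was at 38.6 ± 4.0 CPM in neurons, which overlapped leptomeningeal nuclei at 34.1 CPM. Col11a2 was at 32.8 ± 5.5 CPM in astrocytes and 12.03 ± 3.92 CPM in oligodendrocytes. Col24a1 was at 10.9 ± 1.83 CPM in neurons. Col27a1 was at 180 ± 29.2 CPM in microglia, the immune cells of the brain (lowest 124, median 186, highest 218), with 78.5 CPM in smooth muscle and 5.74 CPM in neurons. Col2a1, the main cartilage collagen, did not exceed 4.54 CPM in any class.

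In the type VI and fibril-associated families, leptomeningeal nuclei led for 3 of 6 and 4 of 9 genes. Among the beaded-filament chains of type VI, Col6a1, Col6a2 and Col6a3 were at 24.3 ± 11.1, 25.8 ± 13.3 and 29.5 ± 11.4 CPM in leptomeningeal nuclei. Col6a4 was at 2.79 CPM in neurons, Col6a5 at 26.4 ± 17.4 CPM in Glia and Col6a6 at 4.03 CPM in endothelium. Of the fibril-associated collagens, Col9a1 was at 18.3 ± 5.09 CPM in oligodendrocytes (10.5 to 26.2) and 5.29 CPM in astrocytes, while its partner chain Col9a3 was at 244 ± 69.5 CPM in Glia (106 to 393) and 21.8 CPM in astrocytes. Col9a2, the other partner, was at 18.7 CPM in leptomeningeal nuclei. Col12a1, Col16a1 and Col22a1 were at 73.3 ± 20.7, 19.0 ± 8.55 and 25.7 ± 8.30 CPM in leptomeningeal nuclei, Col20a1 at 12.3 CPM in Glia and Col14a1 at 9.17 CPM in microglia. Col19a1 was at 91.3 ± 6.81 CPM in neurons (81.9 to 102) against 18.6 CPM in smooth muscle.

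Transmembrane collagens, which span the cell membrane and can be shed, were at their highest in leptomeningeal nuclei for 3 of 4. Col13a1 was at 104 ± 26.9 CPM there (lowest 62.8, median 107, highest 160.4) against 9.67 CPM in smooth muscle, and Col23a1 at 251 ± 64.0 CPM against 62.9 CPM in astrocytes. Col17a1 did not exceed 2.09 CPM. The multiplexins Col15a1 and Col18a1, basement membrane collagens with long side chains, were at 46.8 ± 35.0 CPM in microglia and 60.7 ± 69.4 CPM in smooth muscle, and leptomeningeal nuclei had 40.5 and 47.8 CPM of them. Col8a1 and Col8a2, the short chains of a network known from the cornea, were highest in Glia, at 526 ± 209 CPM (255 to 892) and 111 ± 25.4 CPM (median 111, highest 169), with 113 and 22.7 CPM in leptomeningeal nuclei. Col26a1 was at 215 ± 31.3 CPM in leptomeningeal nuclei against 84.0 CPM in smooth muscle. Col7a1, the anchoring fibril collagen of skin, and Col10a1 and Col28a1 rested on 5, 1 and 5 UMIs in their leading class.

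Col25a1, a transmembrane collagen known from neurons, varied widely among the leptomeningeal libraries. Its level there was 672 ± 320 CPM (lowest 53.6, median 783, highest 1189), against 193 ± 11.1 CPM in neurons. OTV:Malat1 replicate 5 was the lowest library, and without it the mean was 734 ± 259 CPM (n = 10, 343 to 1189). Most leptomeningeal nuclei (1586, or 85.2%) had no UMI of Col25a1, while 195 nuclei with at least 3 held 95.3% of its UMIs. In OTV:Malat1 replicate 5 a single nucleus of 114 (0.877%) had 3 or more. That library was not low in Slc6a13, another leptomeningeal marker (500.1 CPM, against 409 to 530 in the others). Of the 55 members, 10 had their lowest leptomeningeal level in it and 3 their highest, and leaving it out changed the leading class of Col2a1 only.

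The leptomeningeal nuclei were therefore divided by UMIs of 2 transporter genes used as markers, a split chosen after seeing the data and given as a description. Slc47a1 alone was found in 141 nuclei (7.58%, median 1955 UMIs, 10 libraries) and Slc6a13 alone in 804 (43.2%, median 1307.5 UMIs). Both were found in 15 nuclei, and 901 (48.4%) had neither. Pooled, Col25a1 was at 3845 CPM (95% exact Poisson interval 3636 to 4063) in the Slc47a1 nuclei and 67.2 CPM (53.9 to 82.8) in the Slc6a13 nuclei. The first was higher in 10 of 10 libraries. Col8a1 was at 734 and 16.8 CPM, also in that order in 10 of 10, and Col23a1 and Col12a1 at 631 and 178 CPM and at 212 and 48.9 CPM, in that order in 9 of 10 each. Several basement membrane chains had the opposite order. Lama1 was at 39.4 CPM (21.0 to 67.4) in the Slc47a1 nuclei and 586 CPM (545 to 629) in the Slc6a13 nuclei, Col4a6 at 21.2 and 292 CPM, and Col4a5 at 42.5 and 317 CPM, each lower in 10 of 10 libraries. Col26a1 was at 21.2 and 247 CPM and Lamc1 at 124 and 266 CPM, also lower in 10 of 10. Lamc3 had no UMI in the Slc47a1 nuclei, where 3 counts would be 9.10 CPM, against 134 CPM. Other basement membrane chains did not follow them, with Lamb2 at 54.6 and 22.9 CPM and Lama5 at 15.2 and 11.4 CPM. Col4a1 (72.8 and 62.6 CPM), Col1a2 (212 and 174 CPM) and Lama2 (594 and 734 CPM) were closer.

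The nuclei named Glia were divided in the same way by UMIs of choroid plexus genes (Folr1, Clic6, Kl) and ependymal genes, also after seeing the data. The first alone were found in 594 nuclei (39.0%), the second alone in 513 (33.6%), and both in 347 (22.8%). Col8a1 was at 955 CPM (913 to 1000) in the choroid set and 21.8 CPM in the ependymal set, Col9a3 at 436 and 23.6 CPM, Col4a3 at 252 and 9.7 CPM, and Col4a4 at 194 and 46.6 CPM. All 4 were higher in the choroid set in 11 of 11 libraries, as were Col8a2 (147 and 67.2 CPM), Col4a5 (139 and 59.9 CPM), Lamb1 (103 and 32.1 CPM) and Lama5 (86.5 and 16.3 CPM). Other members had the opposite order. Col5a3 was at 2.5 CPM in the choroid set and 76.9 CPM in the ependymal set, Col26a1 at 13.7 and 107 CPM, Lama3 at 13.2 and 95.1 CPM, and Lama2 at 80.9 and 223 CPM, each lower in the choroid set in 11 of 11. Col6a5 had no UMI in the choroid set, where 3 counts would be 1.53 CPM, against 59.9 CPM. Col4a1 (11.7 and 52.7 CPM) and Col4a2 (14.2 and 80.5 CPM) were lower in the choroid set in 10 of 11. In the nuclei with both sets of genes, Col4a3 was at 149 CPM, Col4a4 at 125 CPM, Col4a5 at 108 CPM, Col4a1 at 36.3 CPM and Col4a2 at 61.0 CPM.

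**Figure D4:**
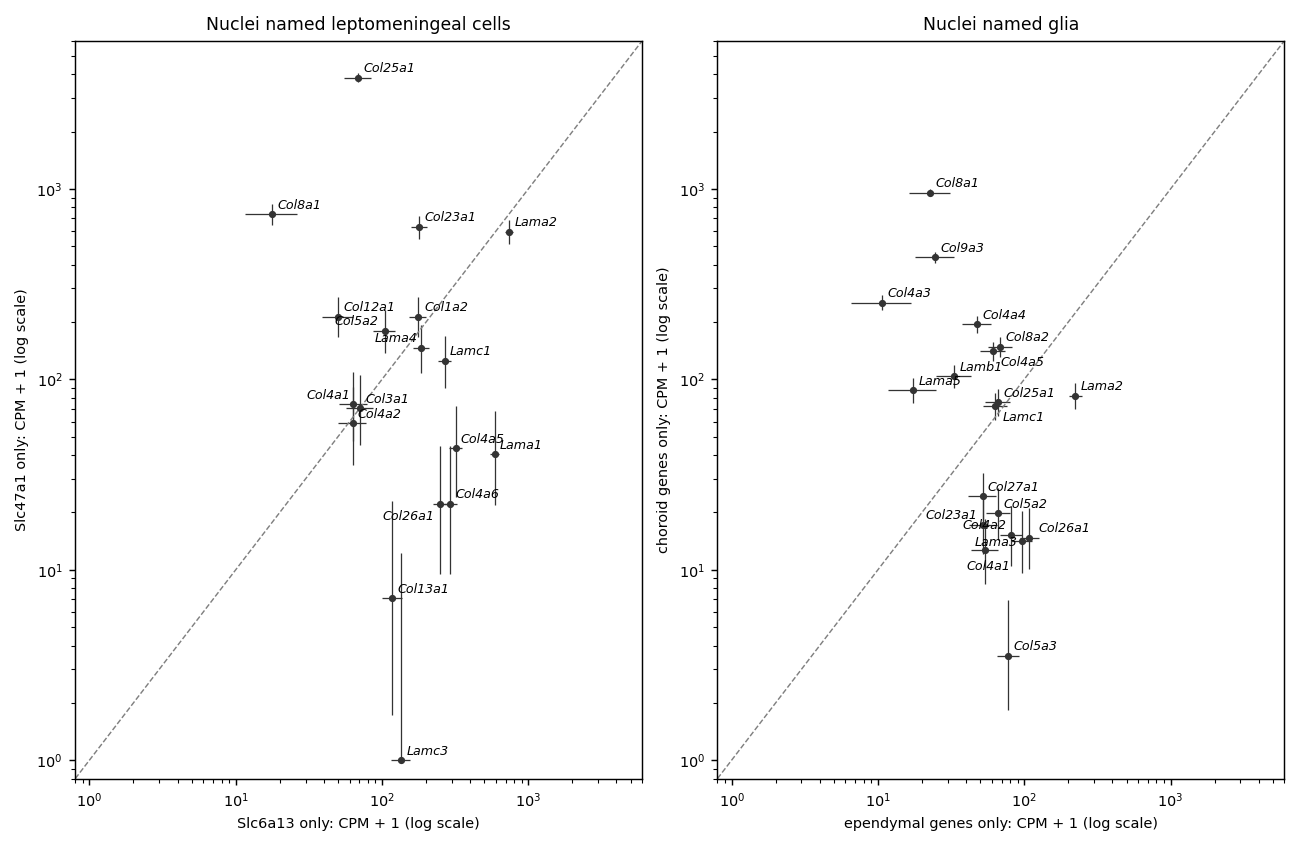
Pooled level in CPM, plus 1, on log axes, of members with at least 100 UMIs in divided classes (bars, 95% Poisson intervals): leptomeningeal nuclei by Slc47a1 and Slc6a13, and Glia by choroid plexus and ependymal genes. Col25a1 and Col8a1 lie on the Slc47a1 side and Lama1, Col4a5 and Col4a6 on the Slc6a13 side, while Col8a1, Col9a3, Col4a3 and Col4a4 lie on the choroid side.

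Neurons led for Col19a1, Col11a1, Col24a1 and Col6a4, and these differed among the authors' clusters of neurons. Cluster 2 had 61.9 ± 7.3 CPM of Col19a1 (52.2 to 74.1), against 99.1 ± 8.8 CPM in cluster 0, 109 ± 12.8 CPM in cluster 1, 78.0 CPM in cluster 5 and 95.7 CPM in cluster 9. Col11a1 and Col24a1 were also lowest in cluster 2, at 22.7 ± 4.8 CPM and 3.7 ± 1.1 CPM, against 39.8 CPM and 14.7 ± 2.8 CPM in cluster 0. Col6a4 had the opposite order, with 5.5 ± 2.4 CPM in cluster 2 and 2.1 CPM in cluster 0. Col25a1 was at 386 ± 21.1 CPM in cluster 1 (349.6 to 429), 300.1 ± 57.6 CPM in cluster 9 and 114 ± 11.9 CPM in cluster 0. The clusters were made from these nuclei, so the values are a description.

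Clusters also divided the astrocyte and oligodendrocyte names. Among nuclei named astrocytes, Col25a1 was at 63.6 CPM in cluster 4 (11208 nuclei), 874 CPM (789 to 964) in cluster 8 (227 nuclei) and 1932 CPM (1740 to 2138) in cluster 6 (207 nuclei). Cluster 6 nuclei of that name had 929 CPM of Slc47a1 and 67.5 CPM of Aqp4, an astrocyte marker, against 16.4 and 264 CPM in cluster 4. Col23a1 was at 46.7, 758 and 374 CPM in these 3. Among nuclei named oligodendrocytes, cluster 5 (779 nuclei) held the precursor markers Pdgfra at 406 CPM and Vcan at 578 CPM. Col9a1 was at 38.0 CPM in it and 14.6 CPM in cluster 3 (12991 nuclei), Col11a2 at 38.0 and 8.8 CPM, and Col20a1 at 28.1 and 3.9 CPM.

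No collagen or laminin passed the test between dosing groups, in any class or in all nuclei together. The comparisons ask whether the oligonucleotide and its carrier altered matrix genes. Each was made on counts summed by library and class, with edgeR's quasi-likelihood test, Benjamini-Hochberg adjustment over all genes of the fit and an adjusted p of 0.05 as the threshold. By class, 175 member tests passed the filter on low counts in comparisons with ATV:BACE1 (55 members in neurons, 34 in astrocytes, 26 in leptomeningeal nuclei, 25 in Glia, 18 in oligodendrocytes, 10 in pericytes, 6 in endothelium and 1 in microglia), and 182 in the others, which add 7 in smooth muscle. A single ATV:BACE1 library had enough smooth muscle nuclei, so that class has no comparison with it. The comparisons share libraries, so their values stand side by side and are not independent.

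For OTV:Malat1 against ATV:BACE1, 0 of 175 member tests were called by edgeR, against 0.00513% of all gene tests. At an unadjusted p under 0.05, edgeR gave 7 member tests (4.00%, against 2.27% of all gene tests) and DESeq2 gave 4 (2.29%, against 0.839%). For nonTV:Malat1 against ATV:BACE1, 0 were called, against 0% of all gene tests, with 6 at an unadjusted p under 0.05 (3.43%, against 2.05%) and 3 by DESeq2 (1.71%, against 0.814%). For Malat1 ASO against ATV:BACE1, 0 were called, against 0%, with 12 (6.86%, against 2.61%) and 6 by DESeq2 (3.43%, against 1.13%). Against nonTV:Malat1, OTV:Malat1 had 0 of 182 called, against 0.00252%, with 7 (3.85%, against 1.74%) and 4 by DESeq2 (2.20%, against 0.576%). Against Malat1 ASO, OTV:Malat1 had 0 called, against 0.00378%, with 10 (5.49%, against 1.95%) and 5 by DESeq2 (2.75%, against 0.651%). DESeq2 called 0 member tests in each comparison, against 0.0077, 0, 0.00128, 0.00503 and 0.00503% of all gene tests in the same order. The median log2 difference over member tests lay between -0.07 and 0.06 in these 5 comparisons, and single values between -2.09 and 2.06. Classes differed in sign within a comparison. Between OTV:Malat1 and ATV:BACE1 the median was 0.21 in pericytes (9 of 10 members higher), 0.18 in Glia (18 of 25 higher) and -0.23 in oligodendrocytes (14 of 18 lower). Those are among the more one-sided classes, and in neurons 29 of 55 were higher. Between Malat1 ASO and ATV:BACE1 it was -0.16 in astrocytes (27 of 34 lower), -0.12 in neurons (38 of 55 lower) and -0.08 in all nuclei (42 of 55 lower). It was 0.08 in Glia (17 of 25 higher), 0.18 in endothelium (4 of 6 higher) and 0.02 in oligodendrocytes (10 of 18 higher). Malat1 ASO had no replicate 4, and with the replicate block its median was -0.01 in all nuclei and -0.02 over the tests by class. Members of a class come from the same libraries, so these counts are not independent. The median over all genes lay between -0.01 and 0.03 in each class and comparison, and none of these members passed. With the replicate number as a block, 0 member tests were called again, against 0.0128, 0.0257, 0.0488, 0.0239 and 0.0176% of all gene tests, but more of them had an edgeR unadjusted p under 0.05, in the order of the edgeR counts above 12 (6.86%, against 4.49% of all gene tests), 13 (7.43%, against 4.44%), 16 (9.14%, against 7.02%), 9 (4.95%, against 3.78%) and 16 (8.79%, against 4.31%).

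In all nuclei together, where a smaller share of a class and less RNA per nucleus cannot be told apart, 0 of 55 members were called by edgeR and by DESeq2 in each of the 5 comparisons, where edgeR called 0% of all genes. Malat1 itself was therefore not called by edgeR there. Its share of UMIs was 4.00 to 5.03% in the OTV:Malat1 libraries and 7.45 to 8.39% in the others. A count of 0 in this fit thus does not show that the groups were alike. DESeq2 called 0% of all genes in nonTV:Malat1 against ATV:BACE1, 0.00467% in each comparison of OTV:Malat1 with those 2 groups and 0.00934% in each that involved Malat1 ASO. Unadjusted p-values under 0.05 were found for 2 members in OTV:Malat1 against ATV:BACE1 (0.752% of all genes) and 2 in Malat1 ASO against ATV:BACE1 (1.75%). None were found in nonTV:Malat1 against ATV:BACE1 (0.901% of all genes), OTV:Malat1 against nonTV:Malat1 (0.766%) or OTV:Malat1 against Malat1 ASO (0.621%). DESeq2 gave 1 in Malat1 ASO against ATV:BACE1 (1.33% of all genes), 1 in OTV:Malat1 against nonTV:Malat1 (0.551%) and 0 in the other comparisons (0.364 to 0.696%). With the block, edgeR called 0 members in each, against 0 to 0.0187% of all genes. In the order of the edgeR values above, members with an unadjusted p under 0.05 then numbered 5 in the first comparison (3.77% of all genes), 4 in the second (8.87%), 3 in the third (5.28%), 6 in the fourth (3.97%) and 2 in the fifth (3.62%). Of 60 other matrix genes tested (collagen-modifying enzymes, basement membrane partners, receptors, proteases and their inhibitors), 0 rose and 0 fell in any comparison by edgeR or DESeq2. By class they gave 254 tests in each comparison with ATV:BACE1 and 262 in the others. Of these, 2 to 7 had an edgeR unadjusted p under 0.05, against 1.74 to 2.61% of all gene tests.

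Members described above in classes with a high level also did not pass. Between OTV:Malat1 and ATV:BACE1, the log2 difference in endothelium ran over the 6 members tested from -0.40 (SE 0.50) for Lama5 to 0.73 (SE 0.34) for Lama4, whose unadjusted p was 0.0417 (edgeR adjusted p = 0.993), with Col4a1 at 0.47 (SE 0.26) and Col4a2 at -0.14 (SE 0.28). It was 0.24 (SE 0.22) for Col4a1 in pericytes and 0.07 (SE 0.25) for Lama1 in leptomeningeal nuclei. In leptomeningeal nuclei Col4a5 was at -0.14 (SE 0.24), Col4a6 at 0.06 (SE 0.27) and Col25a1 at 0.07 (SE 0.47), or 0.54 (SE 0.33) without OTV:Malat1 replicate 5. In Glia Col8a1 was at 0.18 (SE 0.34) and Col4a3 at 0.09 (SE 0.28), and Lama2 in astrocytes was at -0.07 (SE 0.22). Differences as far from 0 as -2.09 and 2.06 did not pass, so a value that missed the threshold does not show that the groups were alike.

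The member and class pairs with the smallest unadjusted p, 3 per comparison, are given by library, and none of these 15, on 13 different pairs, passed (edgeR adjusted p from 0.826 to 1.00). Choosing them by p favours groups that do not overlap, so nothing is read from such a gap. Col4a1 in endothelium was at 204, 233 and 180.0 CPM in ATV:BACE1 (replicates 1, 4 and 5), 225, 234 and 244 CPM in nonTV:Malat1, 346, 234 and 294 CPM in OTV:Malat1, and 366 and 354 CPM in Malat1 ASO. Both Malat1 ASO libraries lay above every other library. The log2 difference from ATV:BACE1 was 0.78 (SE 0.28, edgeR adjusted p = 0.826) for Malat1 ASO, 0.47 (SE 0.26) for OTV:Malat1 and 0.18 (SE 0.27) for nonTV:Malat1.

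Col1a1 in neurons, a low gene there, was at 1.03, 0.8294 and 0.617 CPM in ATV:BACE1, 0.914, 0.933 and 0.818 CPM in nonTV:Malat1, 0.479, 0.521 and 0.502 CPM in OTV:Malat1, and 0.659 and 0.583 CPM in Malat1 ASO. The OTV:Malat1 libraries were the lowest of all, at -0.76 (SE 0.26) on the log2 scale against ATV:BACE1 and -0.87 (SE 0.26) against nonTV:Malat1. Col9a1 in neurons was at 1.98, 1.98 and 2.47 CPM in ATV:BACE1 and 1.33, 1.43 and 1.59 CPM in OTV:Malat1, a log2 difference of -0.60 (SE 0.20). Col6a6 in neurons was at 0.807, 0.957 and 1.10 CPM in ATV:BACE1 and 0.220 and 0.350 CPM in Malat1 ASO, a log2 difference of -1.72 (SE 0.51). All 3 were at 2.47 CPM or less in neurons, and their groups did not overlap.

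In Glia 5 different pairs were among these. Col4a2 was at 31.6, 40.7 and 30.3 CPM in ATV:BACE1 and 59.6, 57.8 and 54.5 CPM in OTV:Malat1, a log2 difference of 0.75 (SE 0.29) that was 1.27 without called doublets. Lama3 was at 38.4, 32.0 and 16.5 CPM in ATV:BACE1 and 56.5, 61.5 and 65.0 CPM in nonTV:Malat1 (0.98, SE 0.33). Col19a1 was at 32.9, 17.4 and 38.6 CPM in ATV:BACE1, 18.8, 5.77 and 12.04 CPM in nonTV:Malat1 (-1.24, SE 0.47) and 8.24 and 5.43 CPM in Malat1 ASO (-2.09, SE 0.64). Its nonTV:Malat1 libraries overlapped the control and its Malat1 ASO libraries did not. Col5a2 was at 23.2, 32.7 and 19.3 CPM in nonTV:Malat1 and 46.6, 66.0 and 29.1 CPM in OTV:Malat1 (0.94, SE 0.33), with overlap. Col25a1 was at 29.8, 39.2 and 90.8 CPM in OTV:Malat1 and 88.5 and 136 CPM in Malat1 ASO (-1.19, SE 0.41), with overlap. Col4a2, Lama3 and Col5a2 (18.8 and 65.4 CPM) were all lower in the choroid set than in the ependymal set of this class, and the part of the share of each set in these differences was not tested.

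The last 4 pairs lay in other classes. Col13a1 in leptomeningeal nuclei was at 107, 160.4 and 105 CPM in ATV:BACE1 and 62.8, 76.4 and 77.6 CPM in nonTV:Malat1 (log2 difference -0.78, SE 0.28). Col11a1 in oligodendrocytes was at 11.98, 12.6 and 14.0 CPM in nonTV:Malat1 and 7.86, 4.50 and 6.22 CPM in OTV:Malat1 (-1.06, SE 0.32). Col8a1 in astrocytes was at 21.4, 12.6 and 15.1 CPM in OTV:Malat1 and 6.32 and 5.67 CPM in Malat1 ASO (1.35, SE 0.41). Some nuclei named astrocytes held much Slc47a1 RNA, as described above, and leptomeningeal nuclei with Slc47a1 alone had 734 CPM of Col8a1. The part of such nuclei in the astrocyte difference was not tested. Col27a1 in pericytes was at 55.7, 50.8 and 56.7 CPM in OTV:Malat1 and at 20.4 and 0 CPM in Malat1 ASO (2.06, SE 0.66). That difference rests on a pair of Malat1 ASO libraries: without replicate 5, the one at 0, it was 1.33 (SE 0.63), and without replicate 1 it was 6.36 (SE 1.55), a value that depends on the prior count because the remaining library has no UMI, and neither passed. The groups compared did not overlap in these 4.

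**Figure D5:**
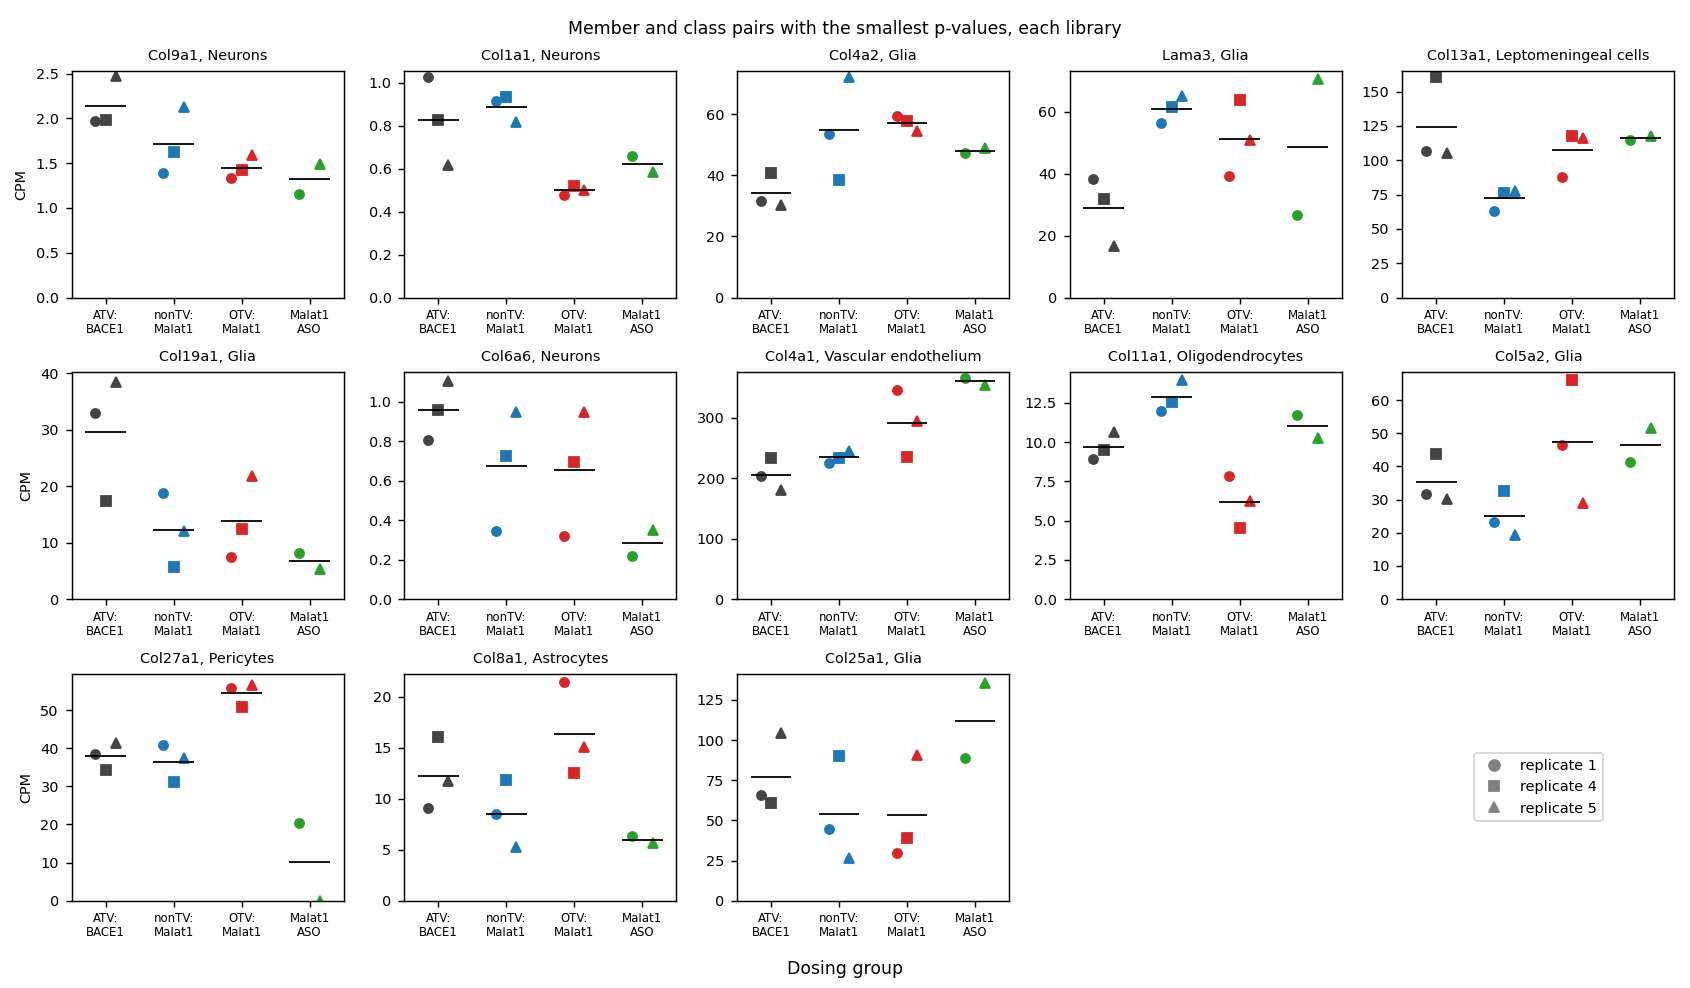
Level in CPM of the 13 member and class pairs with the smallest unadjusted p, by dosing group, with a point for each library (shape for the replicate number) and a bar at the group mean. The choice by p favours groups that do not overlap, and none of the 15 comparisons made on these pairs passed the test.

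Members did differ by replicate number, which carries batch, and with it sex and age. In all nuclei, 29 of 55 members (52.7%) differed by replicate number at an edgeR adjusted p under 0.05, in a fit with group and number as terms, against 47% of all genes, so the members' share was near that of all genes. They were 21 of 44 collagens and 8 of 11 laminins, and 29 of 60 other matrix genes also differed. The highest mean was in replicate 1 for 9 of the 29, in replicate 4 for 13 and in replicate 5 for 7, and the ratio of highest to lowest mean ran from 1.15 to 3.04, with a median of 1.33. The makeup of the libraries moved with replicate number: astrocytes were 12.1 to 17.9% of nuclei in replicate 1, 11.4 to 14.0% in replicate 4 and 6.29 to 9.95% in replicate 5, and neurons 60.8 to 66.7%, 64.6 to 70.0% and 71.7 to 80.9%. The part of these shares in the differences in all nuclei was not tested apart from the tests within classes below. DESeq2 called 26 of 55, against 41% of the genes for which it gave an adjusted p.

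The 5 members with the smallest p were Lama2, Lamb1, Col10a1, Col23a1 and Col4a1. Lama2 was at 90.1 ± 10.97 CPM in replicate 1 (n = 4), 94.5 ± 5.23 CPM in replicate 4 (n = 3) and 65.9 ± 7.10 CPM in replicate 5 (n = 4), with an edgeR adjusted p of 0.000643. Lamb1 was at 13.2 ± 0.864, 17.2 ± 0.880 and 17.2 ± 0.572 CPM (edgeR adjusted p = 0.000671). Col10a1 was at 0.400 ± 0.144, 1.11 ± 0.193 and 1.22 ± 0.114 CPM (edgeR adjusted p = 0.000784). Col23a1 was at 24.7 ± 1.06, 28.3 ± 0.919 and 21.7 ± 0.825 CPM (edgeR adjusted p = 0.000987). Col4a1 was at 34.7 ± 1.07, 31.8 ± 1.60 and 28.8 ± 2.18 CPM (edgeR adjusted p = 0.00171). Others called included Col6a1, Lamc1, Col25a1, Col8a1, Col6a4, Col5a2, Col24a1, Col4a5, Lamb3, Col28a1, Col4a6, Col19a1, Col6a6, Col9a3, Col16a1, Lama4, Lama1, Col4a3, Col11a1, Col5a1, Lama3, Col1a1 and Col11a2.

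Within classes, a test added after seeing the data, the calls were fewer. In neurons 22 of 55 members differed by replicate number, against 48.4% of all genes, and 21 of them were also called in all nuclei. In astrocytes 8 of 34 differed, against 19.5% of all genes, in oligodendrocytes 1 of 18 (Lama2), against 17.9%, in leptomeningeal nuclei 4 of 26 (Col11a1, Col25a1, Lama1 and Col4a6), against 5.36%, and in Glia 2 of 25 (Lama2 and Col8a1), against 2.04%. The vascular classes and microglia had 0 calls by edgeR among 6 members in endothelium (1.08% of all genes called), 10 in pericytes (0.824%), 7 in smooth muscle (0.194%) and 1 in microglia (6.97%), and also 0 at an unadjusted p under 0.05. Col25a1 in leptomeningeal nuclei was at 934, 739 and 361 CPM in replicates 1, 4 and 5, and replicate 5 includes the OTV:Malat1 library without Slc47a1. Without that library the replicate 5 mean was 464 ± 105 CPM (n = 3), Col25a1, Lama1 and Col4a6 still passed (edgeR adjusted p of 2.53e-05, 0.0169 and 0.0184) and Col11a1 did not (edgeR adjusted p = 0.0768). The share of leptomeningeal nuclei with a Slc47a1 UMI also moved with replicate number in these 10 libraries, at 9.69 to 13.9% in replicate 1, 5.63 to 9.85% in replicate 4 and 4.64 to 5.71% in replicate 5. Those nuclei had more Col25a1 and less Lama1 and Col4a6 than the Slc6a13 nuclei. In replicate 5 without that library, Lama1 was at 527 ± 97.4 CPM and Col4a6 at 232 ± 41.2 CPM (n = 3). Over all 10 libraries they were at 522 ± 109 CPM and 260.5 ± 69.9 CPM. The part of the share of Slc47a1 nuclei in these calls was not tested.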

How the data were processed

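Nuclei were taken from frozen mouse brain, and each of the 11 libraries is 1 sample. The deposited matrix holds UMI counts per gene and nucleus, made by the authors. Cell Ranger 5.0.0, Seurat 4 and the mm10 build are named per the submitters' processing notes. The annotation is not stated in those notes, nor whether intronic reads or strand were used. The deposited table of nuclei gives the class name, cluster, doublet call, a score for the class name (a fraction, at most 1) and the mitochondrial percent of UMIs, per the file headers. All nuclei were used as deposited, including 10.4% called doublets and 1.87% with a prediction score under 0.5.

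Counts were summed per library and class. Levels are CPM. Dosing groups were compared with edgeR 4.0.16 in R 4.3.3 (glmQLFit and glmQLFTest, TMM, filterByExpr by group, 4 groups sharing a spread, adjustment over all genes of the fit), with DESeq2 1.42.0 as the other tool. The scripts were tested on simulated data. Figures and tables used Python 3.11.15. Libraries with under 20 nuclei of a class were left out of that class, and depth, 33235994 to 43972886 UMIs per library, limits low genes.

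Named members follow a rule: each member with at least 200 UMIs with its highest class, every member called, the 3 smallest p-values per comparison, and for replicate number the 5 smallest in full. The members, lists and rules were chosen with earlier results of these data known. The values of 1 member are not reported here. Alternatives were another tool, no TMM, Malat1 left out, no filter on low counts, a replicate block, nuclei left out, 50 nuclei per class and each library left out. Leaving out OTV:Malat1 replicate 5 for levels, the splits of 3 classes and the test of replicate number within classes (in leptomeningeal nuclei also without that library) were added after seeing the data.

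Replicate numbers are in the labels, and each is its own deposited batch. Deviations from the group means correlated between libraries of the same number, at a Pearson r of 0.452 to 0.826 over 15 pairs. Between different numbers r was lower, at -0.766 to 0.337 over 30 pairs. Deviations from a group mean cancel within the group, so a high r within numbers lowers r between them. The second range is therefore not a separate observation. Each r was taken across 15333 genes with at least 50 UMIs, which are not independent replicates. The numbers thus pair the libraries, but the fit chosen for the dosing comparisons has no block and does not use that pairing. Its p-values and SEs, and the choice of the 15 named differences, are therefore unpaired. The block is an alternative to it.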

Additional observations from a re-analysis of the deposited data

Results flagged for a closer look

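Some members moved one way in every replicate number of one class and the opposite way in another class, under the same comparison of dosing groups. The difference between classes was not tested, and none of these values passed the test within its class. In each case 1 class came from a pair chosen above by smallest p, a choice that favours a steady direction there. With 2 or 3 replicate numbers to compare, a steady opposite direction in another class can arise by chance, and nothing is read from it. For OTV:Malat1 against ATV:BACE1, the log2 difference of Col9a1 was 0.56 in astrocytes and -0.60 in neurons, and that of Col1a1 was 0.26 in astrocytes and -0.76 in neurons. For OTV:Malat1 against nonTV:Malat1, Col1a1 was at 0.44 in astrocytes and -0.87 in neurons, Col11a1 at 0.25 in astrocytes and -1.06 in oligodendrocytes, and Col5a2 at 0.94 in Glia and -0.16 in astrocytes. For OTV:Malat1 against Malat1 ASO, which share replicate numbers 1 and 5 only, Col8a1 was at 1.35 in astrocytes, -0.16 in neurons and -2.01 in oligodendrocytes. Col25a1 was at 0.09 in neurons and -1.19 in Glia under that comparison.

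Within the 4 libraries of replicate 5, Lamb1 in all nuclei stood at 18.1 CPM in OTV:Malat1, against 16.9 to 17.0 CPM in the other 3. Neurons were 11199 of 13840 nuclei in that library and 71.7 to 80.9% over the 4, and they supplied 87.3% of Lamb1 UMIs in the series. The part of this makeup in the gap was not tested. It is the 1 gap of this size in 10 groups of libraries searched (5 members, replicates 1 and 5). Such a search can give a gap by chance, so nothing is read from it.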

How the results depend on the processing

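The counts of members called between dosing groups were recomputed under up to 19 alternative settings, for each comparison by class and in all nuclei. Of the 185 recomputed counts, 183 were again 0, including those of DESeq2. With the replicate block the count was 0 in each comparison, by class and in all nuclei, so the pairing changed no call. Without the filter on low counts, 1 member was called by class in nonTV:Malat1 against ATV:BACE1 and 1 in OTV:Malat1 against nonTV:Malat1. Both were Col25a1 in microglia, at log2 differences of 3.34 and -3.49 (edgeR adjusted p of 3.22e-08 and 1.62e-10). A single nucleus of nonTV:Malat1 replicate 4 held 96 of the 144 microglial Col25a1 UMIs, and without it the pooled microglial level was 37.5 CPM. The 15 named differences, recomputed under the same settings for 280 values in all, kept their direction and did not pass. The lowest edgeR adjusted p was 0.148, for Col6a6 in neurons with the replicate block. The number of members that differed by replicate number lay between 24 and 30 over 17 alternatives, and between 24 and 30 with each library left out. The highest class was the same for 53 members without called doublets, 52 without nuclei of low prediction score, 50 without nuclei under 1000 UMIs and 54 without OTV:Malat1 replicate 5. Members that changed class rested on 18 UMIs or fewer there, except Lama4 and Lama5 (81 and 90 UMIs). Levels by neuron cluster had no alternative.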
